A study of Mus musculus with 18 samples.

Results

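The 18S-rRNA, 5.8S-rRNA, 28S-rRNA and 45S-rRNA entries of a mouse liver small RNA table were followed here. They are 4 of the 1234 RNAs listed, taken by name, and hold the fragments of the transcripts made by RNA polymerase I. The study asked how a high-cholesterol diet changes hepatic small RNAs, and read each liver by 2 sequencing methods. Livers came from male C57BL/6 mice that were 8 weeks old when feeding began, on a high-cholesterol diet (HCD, with cholesterol at 0.5%, mice 15 to 18) or on a diet with 0.02% (LCD, low cholesterol, mice 1 to 5). Each liver gave 1 PANDORA-seq and 1 traditional-seq library, so there were 4 HCD and 5 LCD libraries per method and 18 in all. The sources differ on the feeding time: the growth notes state 9 weeks, the series design 4 weeks, and the time entry 8 weeks. RNA of 15 to 50 nucleotides was cut from a gel for both methods. In PANDORA-seq the RNA was first treated with T4PNK, a kinase that repairs fragment ends to which adapters cannot be joined, and then with AlkB, a demethylase that takes off methyl groups at which the reverse transcriptase stops. No such treatment was given for traditional-seq. The whole liver was sampled, so fewer cells of a type and less RNA per cell cannot be told apart.

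RNA polymerase I transcribes the ribosomal DNA repeats in the nucleolus into a long precursor, here the 45S entry. The precursor is cut at its spacers to release 18S rRNA, the RNA of the small ribosomal subunit, and 5.8S and 28S rRNA, which pair with each other in the large subunit. Liver cells are rich in ribosomes, and short pieces of these RNAs, called rRNA-derived small RNAs (rsRNAs), are read alongside miRNAs and tRNA fragments (tsRNAs) in small RNA libraries. The 3′ end of 18S rRNA is shown because 18S fragments carried the largest differences below among the 4 entries. It is read from Rn18s-rs5, an 18S copy annotated as a pseudogene by RefSeq, at chr17:39848083-39848202 on the plus strand of GRCm38. The capitals mark the stretch that holds a hairpin loop, with part of its stem, and in mature 18S rRNA the adjacent adenosines of this loop are dimethylated. Dimethylated adenosine is not among the AlkB targets that the study names, and whether AlkB acts at this loop was not tested. The table does not give the positions of the fragments, so no value below is tied to a place in this sequence.
18S 3′ end: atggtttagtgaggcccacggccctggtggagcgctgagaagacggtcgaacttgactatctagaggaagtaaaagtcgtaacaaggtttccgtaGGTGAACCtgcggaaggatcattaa

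Reads were assigned by the authors with SPORTS1.1 on the mm10 genome, allowing 1 mismatch, and are given as RPM, reads scaled to the read total of the library. The depth inferred from the steps between low values was 1934330 to 25488322 reads per library. The rarest value of the 4 entries then rests on 6244 reads, for which counting error alone is 1.27%. The listed RNAs left out 13.6% to 18.9% of reads in HCD PANDORA-seq libraries, against 20.3% to 22.3% in LCD PANDORA-seq libraries. Traditional-seq libraries left out 4.15% to 8.12% (HCD) and 4.28% to 5.79% (LCD). The liver label was checked with miR-122, a hepatocyte miRNA, which took 15.3% to 64.4% of miRNA reads over the 18 libraries. Markers of red cells (miR-451a and miR-144) took at most 0.00168% of miRNA reads in any library, and were at 0 in all LCD PANDORA-seq libraries. Endothelial miR-126a took 0.0102% to 0.0656% in HCD and 0.0384% to 0.147% in LCD PANDORA-seq libraries, against 0.298% to 0.554% in HCD and 0.295% to 1.09% in LCD traditional-seq libraries. By the methods both libraries of a mouse used RNA of the same liver, so shares that differ between the methods do not measure its cells. The part of cell content in the diet differences was not tested.

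Polymerase I fragments filled 59.0% ± 3.77 of listed reads in HCD PANDORA-seq libraries (SD, n = 4), 59.2% ± 8.97 in LCD PANDORA-seq libraries (n = 5), 22.6% ± 8.02 in HCD traditional-seq libraries (n = 4) and 18.3% ± 2.05 in LCD traditional-seq libraries (n = 5). Most of these reads belonged to 28S rRNA in every library. Its share of the reads of the 4 entries was 77.8% ± 2.20 and 76.6% ± 3.95 in HCD and LCD PANDORA-seq libraries, and 81.1% ± 6.21 and 91.7% ± 1.49 in HCD and LCD traditional-seq libraries. The LCD traditional-seq libraries stood apart by their small 18S share. 18S rRNA gave 14.2% ± 2.60 and 18.8% ± 4.86 of the reads in HCD and LCD PANDORA-seq libraries, 11.8% ± 5.21 in HCD traditional-seq libraries, and 2.17% ± 0.393 in LCD traditional-seq libraries.

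**Figure D1:**
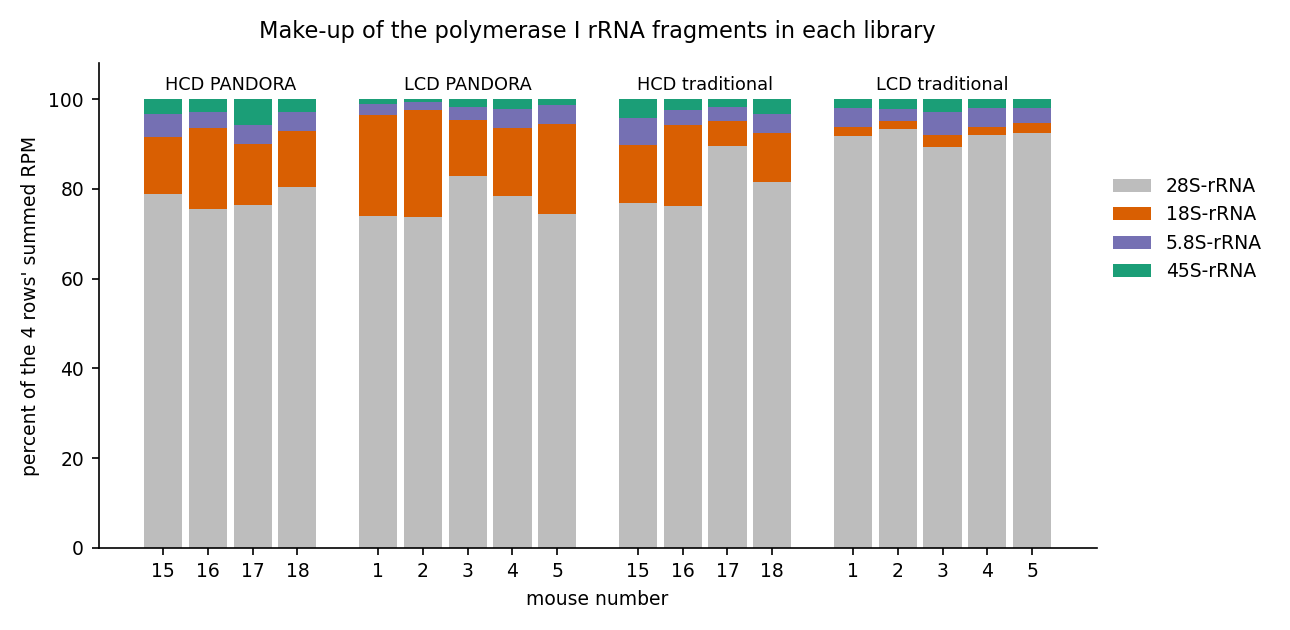
Stacked bars give the percent of the summed RPM of the 4 entries that each took in each library, with mouse numbers on the x axis and the 4 groups side by side. The 18S part is between 5.39% and 24.0% in all bars but those of the 5 LCD traditional-seq libraries, where it is at most 2.75%.

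The order of the entries by reads followed the same split. In 12 of the 13 libraries outside the LCD traditional-seq group, the order was 28S, 18S, 5.8S and 45S, and in HCD PANDORA-seq mouse 17 the 45S entry had more reads than 5.8S. In the LCD traditional-seq libraries 18S came after 5.8S in all 5, and also after 45S in 3. RPM are not divided by length, so these orders describe reads and not numbers of molecules. A length could be given to 18S (1849 nucleotides, Rn18s-rs5) and 5.8S (148 nucleotides, n-R5-8s1) from annotated copies. The 28S copy that was found, Rn28s1, is annotated with 420 nucleotides, far shorter than 28S rRNA, and was not used, and no length was given to 45S. Per kilobase, 5.8S had 3.90 ± 1.09 and 2.27 ± 1.11 times the RPM of 18S in HCD and LCD PANDORA-seq libraries, and 5.15 ± 2.09 and 22.6 ± 5.67 times in HCD and LCD traditional-seq libraries (SD). The LCD traditional-seq range, 16.7 to 28.1, did not overlap that of any other group. The highest ratio elsewhere was 7.40, in an HCD traditional-seq library, and 1 LCD PANDORA-seq library had less 5.8S than 18S per kilobase (0.839).

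**Figure D2:**
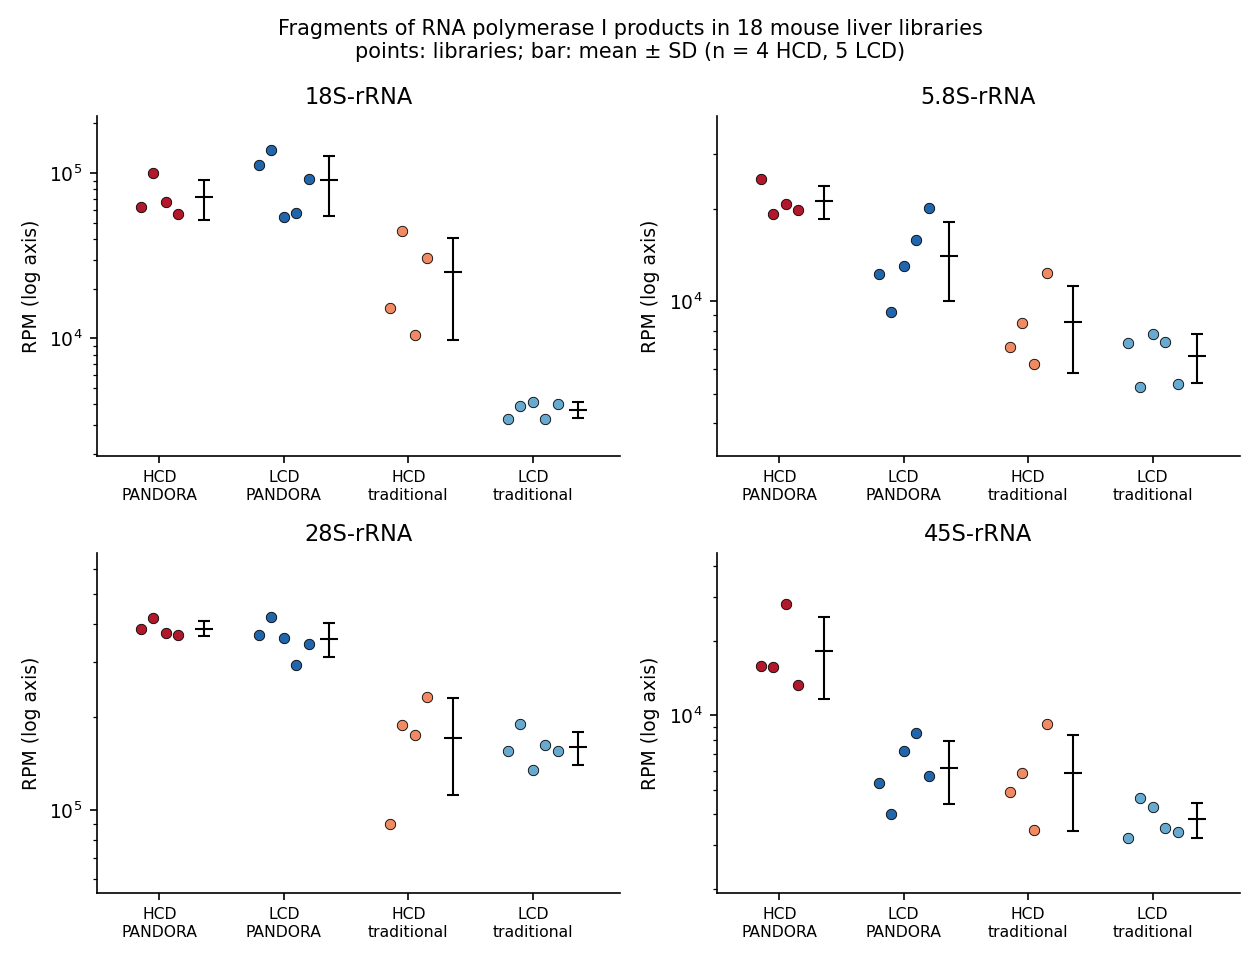
Each panel shows 1 entry, with RPM on a log axis for the HCD PANDORA, LCD PANDORA, HCD traditional and LCD traditional libraries. Points are libraries and bars are the mean ± SD, and the lowest 18S values are those of the 5 LCD traditional-seq libraries, all at or under 4155 RPM.

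Within LCD-fed mice, all 4 entries were higher by PANDORA-seq than by traditional-seq, and 18S by far the most. By limma on log2(RPM + 1), with Benjamini-Hochberg adjustment over 325 RNAs, 4 of 4 passed an adjusted p of 0.05 upward, where 21.8% of all RNAs tested did and 70.5% passed downward. The median change of the 4 entries was 1.11 on the log2 scale, and that of all RNAs tested was -2.63. Most RNAs tested were miRNAs, of which 218 of 241 passed downward. Of the cytosolic tsRNAs 43 of 51 passed upward, with a median of 2.42, so the rise was not particular to the 4 entries. The 5 LCD PANDORA-seq libraries had 111444, 137532, 54048, 57564 and 92252 RPM of 18S (mice 1 to 5), against 3267, 3887, 4155, 3264 and 4033 RPM in the LCD traditional-seq libraries. The lowest PANDORA-seq value was thus far above the highest traditional-seq value, and the traditional-seq values lay close together. 18S was 22.9-fold higher, a log2 fold change of 4.52 (SE 0.27, limma adjusted p = 1.31e-10), and the fold within a mouse ran between 13.0 (mouse 3) and 35.4 (mouse 2).

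28S, the RNA that forms the core of the large subunit, had 367212, 421794, 359078, 295221 and 342891 RPM in LCD PANDORA-seq libraries, against 155180, 190289, 134833, 162215 and 155108 RPM in LCD traditional-seq libraries. The groups did not overlap, and the gap was about the same in every mouse, between 1.82-fold and 2.66-fold. The fold change was 2.24 (log2 1.16, SE 0.18, limma adjusted p = 9.39e-06). 5.8S, its short partner, had 12241, 9239, 12971, 15743 and 20036 RPM in LCD PANDORA-seq libraries, against 7316, 5233, 7792, 7345 and 5378 RPM in LCD traditional-seq libraries. All 5 mice were higher by PANDORA-seq, mouse 5 the most, and the groups did not overlap. The fold change was 2.08 (log2 1.06, SE 0.26, limma adjusted p = 0.000857).

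The 45S precursor entry had 5334, 4001, 7165, 8484 and 5712 RPM in LCD PANDORA-seq libraries, against 3228, 4643, 4269, 3539 and 3411 RPM in LCD traditional-seq libraries. The groups overlapped, and mouse 2 was lower by PANDORA-seq (0.862-fold). The fold change was 1.57 (log2 0.65, SE 0.26, limma adjusted p = 0.0244). This call did not hold with no filter on low RNAs (adjusted p = 0.0640), with all 18 libraries in 1 fit (0.0525), or without any of 5 of the 10 libraries (PANDORA-seq mice 3 and 4 and traditional-seq mice 1, 4 and 5, adjusted p up to 0.0696 and log2 fold change down to 0.52). The mouse as a block changed no call among the 4 entries.

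In HCD-fed mice all 4 entries were again higher by PANDORA-seq, and here by similar folds. By limma over 312 RNAs, 4 of 4 passed upward, where 18.3% of all RNAs tested did and 61.5% passed downward. All 4 log2 fold changes lay between 1.25 and 1.69, while the median over all RNAs was -1.84. Here too 190 of 229 miRNAs passed downward, and 39 of 51 cytosolic tsRNAs passed upward, with a median of 2.75. 18S had 62604, 99447, 66721 and 56851 RPM in HCD PANDORA-seq libraries (mice 15 to 18), against 15279, 44444, 10542 and 30586 RPM in HCD traditional-seq libraries. The groups did not overlap, but traditional-seq mouse 16 came close to the lowest PANDORA-seq library. 18S was 3.22-fold higher (log2 1.69, SE 0.45, limma adjusted p = 0.00105), with folds of 4.10, 2.24, 6.33 and 1.86 within mice 15 to 18.

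28S had 383399, 416183, 374075 and 369142 RPM in HCD PANDORA-seq libraries, against 90241, 188613, 175407 and 231221 RPM in HCD traditional-seq libraries. The PANDORA-seq values were tight, with a coefficient of variation of 5.49%, against 34.5% by traditional-seq, where mouse 15 was low. The fold change was 2.38 (log2 1.25, SE 0.41, limma adjusted p = 0.00654). 5.8S had 24949, 19150, 20664 and 19761 RPM in HCD PANDORA-seq libraries, against 7066, 8497, 6242 and 12330 RPM in HCD traditional-seq libraries. No value was shared between the ranges, and every mouse was higher by PANDORA-seq. The fold change was 2.55 (log2 1.35, SE 0.42, limma adjusted p = 0.00399).

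45S had 15860, 15709, 28003 and 13299 RPM in HCD PANDORA-seq libraries, against 4939, 5890, 3458 and 9266 RPM in HCD traditional-seq libraries. The groups did not overlap, and mouse 17 was both the highest by PANDORA-seq and the lowest by traditional-seq, with an 8.10-fold difference where the other mice had 1.44 to 3.21. The fold change was 3.16 (log2 1.66, SE 0.44, limma adjusted p = 0.000920). Per miRNA read the method gap was wider for every entry in both diets, since miRNAs were 10.2% ± 3.87 and 3.49% ± 1.67 of listed reads in HCD and LCD PANDORA-seq libraries, against 70.6% ± 10.2 and 67.3% ± 2.72 in HCD and LCD traditional-seq libraries. Scaled to miRNA reads, the log2 fold changes of the 4 entries were 5.32 to 9.18 in LCD mice and 4.25 to 4.69 in HCD mice. The direction was upward for all 4 under each of the 4 scalings run. Over all RNAs tested, 70.3% of calls were upward in LCD mice on the miRNA scale, against 23.7% with RPM as deposited, and in HCD mice 120 were upward and 80 downward, against 57 and 192. The median log2 fold change on the miRNA scale was 0.37 in LCD and 0.35 in HCD mice.

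**Figure D3:**
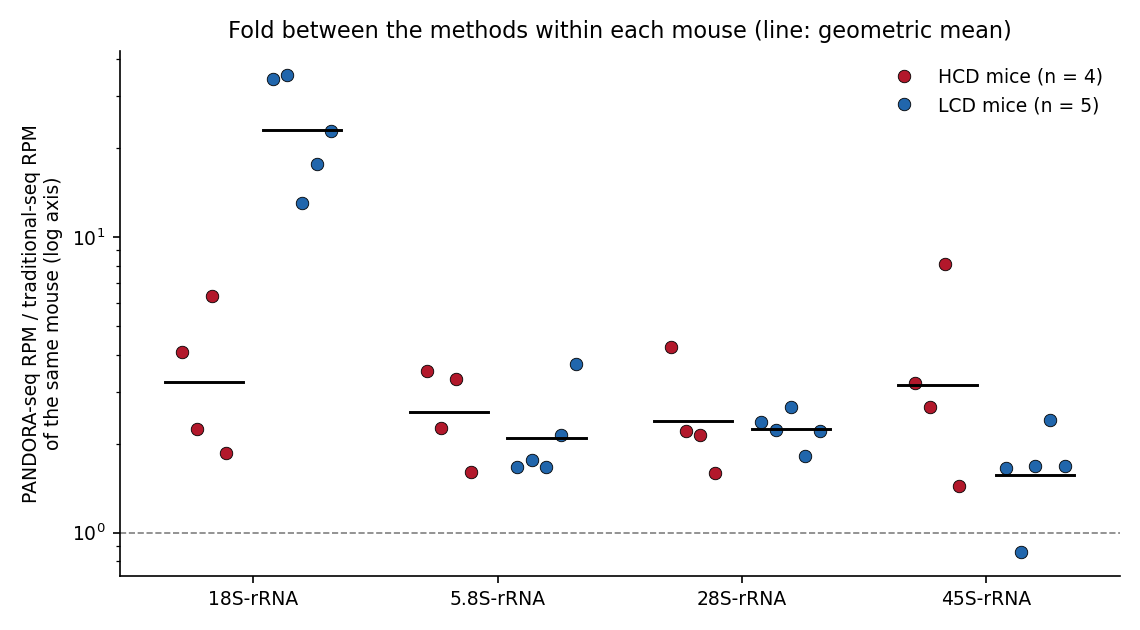
The fold between PANDORA-seq and traditional-seq RPM of the same mouse is drawn on a log axis for each entry, with HCD mice left of LCD mice and a line at the geometric mean. For 18S the 4 HCD mice lie between 1.86 and 6.33 and the 5 LCD mice between 13.0 and 35.4, and for the other entries the diets overlap.

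Ratios between the entries do not depend on the scaling of a library, so the make-up was compared through them. The 28 log2 ratios among the 8 rRNA entries of the table (the 4 here with 4.5S, 5S, 12S and 16S) were compared by exact permutation tests, two-sided, with p-values adjusted over all 28, and ratios that share an entry are not independent. In LCD mice 3 of the 6 ratios among the polymerase I entries differed between the methods, where 35.7% of the 28 did, and the 3 were those with 18S in them. For each 28S read there were 0.303, 0.326, 0.151, 0.195 and 0.269 reads of 18S in LCD PANDORA-seq libraries, against 0.0211, 0.0204, 0.0308, 0.0201 and 0.0260 in LCD traditional-seq libraries. The groups were far apart, by 3.36 on the log2 scale (exact permutation p = 0.00794, the smallest 5 against 5 libraries can give, adjusted p = 0.0247). As 5 pairs within mice the adjusted exact p was 0.125, since 5 pairs cannot give a p below 0.0625. The 18S/5.8S ratio differed by 3.46 and 45S/18S by -3.87, both with the same exact p and with adjusted p = 0.125 as pairs.

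The ratios without 18S did not pass between the methods. In LCD mice 5.8S/28S differed by -0.10 (adjusted exact p = 0.741), 45S/28S by -0.51 (0.170) and 45S/5.8S by -0.41 (0.187). Without PANDORA-seq mouse 4 the 45S/28S difference was -0.70 and passed (adjusted exact p = 0.0222). In HCD mice 0 of the 6 ratios and 0.00% of the 28 passed, by an exact test of 4 against 4 libraries whose smallest p is 0.0286, and no ratio among the 6 had an unadjusted p under 0.05. The 18S/28S ratio was 0.163, 0.239, 0.178 and 0.154 in HCD PANDORA-seq libraries, against 0.169, 0.236, 0.0601 and 0.132 in HCD traditional-seq libraries. In mice 15, 16 and 18 the methods thus gave almost the same ratio, with log2 differences of -0.05, 0.02 and 0.22, and mouse 17 alone lay apart at 1.57.

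Over all 9 mice, the within-mouse log2 difference of 18S/28S between PANDORA-seq and traditional-seq averaged 2.06 ± 1.68 (SD) and was positive in 8 (exact sign-flip p = 0.0117, adjusted p = 0.0410). That of 18S/5.8S averaged 2.07 ± 1.76 (positive in 8, adjusted exact p = 0.0410). These 2 of 6 passed, a share near that among all 28, of which 28.6% passed. Both are means over mice that split by diet, and 18S/28S and 18S/5.8S each lost their call when any mouse but 16 was left out (adjusted exact p up to 0.0820).

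By diet in traditional-seq, 18S was the member that rose. The comparisons by diet were scaled by TMM, which sets the bulk of RNAs to the same level between libraries. By limma over 349 RNAs, 1 of the 4 entries passed upward, where 3.44% of all RNAs tested did, and 0 downward, where 6.30% did. HCD traditional-seq libraries had 10542 to 44444 RPM of 18S, against 3264 to 4155 RPM in LCD traditional-seq libraries, so the lowest HCD library was above the highest LCD library. The HCD libraries also spread more, with a coefficient of variation of 61.1% against 11.5%. 18S was 9.14-fold higher in HCD mice (log2 3.19, SE 0.43, limma adjusted p = 0.000364), with log2 values of 2.51 to 2.57 under the 3 other scalings. Those scalings put the median of all RNAs tested between -0.56 and -0.51, against 0.06 with TMM, and the share of calls that were upward was at most 5.77%, against 35.3% with TMM.

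The other entries did not pass in traditional-seq. 45S had a log2 difference of 1.19 (SE 0.38, limma adjusted p = 0.0562), 5.8S of 0.98 (SE 0.44, adjusted p = 0.186) and 28S of 0.68 (SE 0.43, adjusted p = 0.387). The means were 5888 ± 2464 RPM of 45S in HCD and 3818 ± 607 RPM in LCD libraries, and 171370 ± 59098 RPM of 28S in HCD and 159525 ± 20011 RPM in LCD libraries (SD). These are RPM as deposited, while the log2 differences are after TMM scaling. As deposited, the geometric means of 28S were close, 162097 RPM in HCD and 158541 RPM in LCD libraries, so most of its log2 difference came with the scaling. The 45S value lies near the threshold: it passed with a filter at 10 RPM (adjusted p = 0.0410) and without HCD mouse 15, 16 or 17 or LCD mouse 3 or 4 (as low as 0.0274), while with RPM as deposited its log2 difference was 0.55 (0.264). 28S passed only without HCD mouse 15 (log2 0.99, adjusted p = 0.0489).

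The ratios set the 18S difference against its own sister RNAs. In traditional-seq 3 of the 6 ratios differed by diet, where 39.3% of the 28 did, again those with 18S. 18S/28S was 0.149 ± 0.0733 in HCD and 0.0237 ± 0.00465 in LCD libraries (SD), a log2 difference of 2.52 (exact permutation p = 0.00794, the smallest 4 against 5 libraries can give, adjusted p = 0.0222). 18S/5.8S was higher by 2.21, and 45S/18S was lower, with the same adjusted exact p. With 1 library fewer the exact test often missed the threshold, in 7 of 9 cases for each of the 3 ratios (adjusted p up to 0.0800), while limma with 28S reads as the scale gave 2.51 for 18S/28S (adjusted p = 0.00160). HCD traditional-seq libraries also held fewer cytosolic tsRNA reads, 0.647% to 2.33% of listed reads, against 6.24% to 8.13% in LCD traditional-seq libraries, and the part of this in the 18S value was not tested.

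By diet in PANDORA-seq 18S did not pass, unlike in traditional-seq, and 45S was higher in HCD mice. The 45S log2 difference was 1.39 here and 1.19 in traditional-seq, where it fell just short of the threshold (limma adjusted p = 0.0562). By limma over 244 RNAs, 1 of the 4 entries passed upward, where 7.79% of all RNAs tested did, and 0 downward, where 15.6% did. 45S had 13299 to 28003 RPM in HCD PANDORA-seq libraries, against 4001 to 8484 RPM in LCD PANDORA-seq libraries, and the ranges did not overlap. It was 2.62-fold higher (log2 1.39, SE 0.42, limma adjusted p = 0.0326). The call was lost without HCD mouse 17 (adjusted p = 0.105), without LCD mouse 5 (0.0555) and with no filter (0.111).

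The 45S result depends on what the reads are scaled to. With RPM as deposited or scaled to listed reads the log2 fold change was 1.55 (limma adjusted p = 0.00409) and 1.46 (0.00594), but scaled to miRNA reads it was -0.15 (SE 0.55) and did not pass. Per 1000 miRNA reads, HCD PANDORA-seq libraries had 250, 185, 206 and 217 reads of 45S, against 135, 238, 163, 394 and 360 in LCD PANDORA-seq libraries, and the groups overlapped. The miRNA share itself was 7.56% to 15.8% of listed reads in HCD and 2.04% to 5.58% in LCD PANDORA-seq libraries, with no overlap. On that scale the median of all RNAs tested was -1.27 and 0% of calls were upward, against 33.3% with TMM and 50.9% with RPM as deposited, and 18S (-1.99, adjusted p = 0.00384) and 28S (-1.58, 0.00889) passed downward.

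The remaining entries in PANDORA-seq did not pass under TMM scaling, and the means given with them are of RPM as deposited. 18S averaged 71406 ± 19128 RPM in HCD and 90568 ± 35592 RPM in LCD libraries, with a log2 difference of -0.45 (SE 0.39, limma adjusted p = 0.385). 28S averaged 385700 ± 21165 RPM in HCD and 357239 ± 45613 RPM in LCD libraries, with a log2 difference of -0.05 (SE 0.33, adjusted p = 0.912). 5.8S averaged 21131 ± 2620 RPM in HCD and 14046 ± 4071 RPM in LCD libraries, with a log2 difference of 0.47 (SE 0.34, adjusted p = 0.332). Only 1 LCD library, mouse 5, reached the HCD range of 5.8S.

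**Figure D4:**
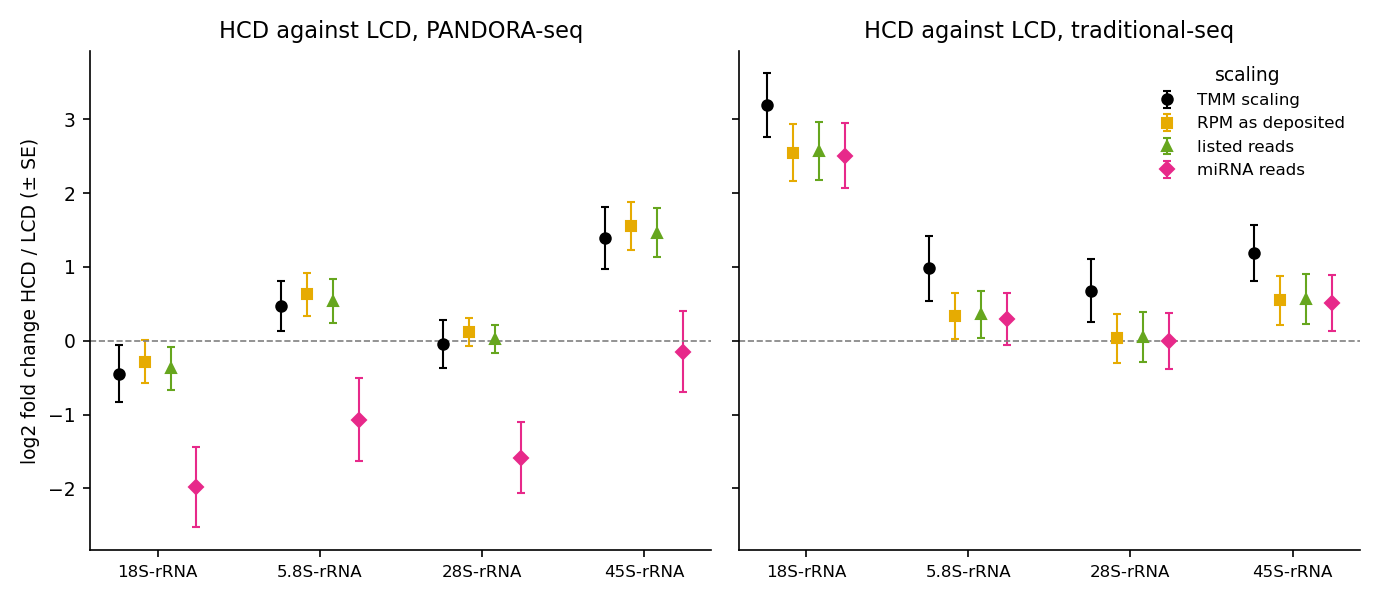
Log2 fold changes of HCD over LCD (± SE, limma) are shown for each entry in PANDORA-seq (left) and traditional-seq (right) under 4 scalings. The miRNA scaling lies below the others in PANDORA-seq, where 45S is at -0.15 instead of 1.39 to 1.55, and all scalings put 18S in traditional-seq between 2.51 and 3.19.

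Against 28S and 5.8S, 45S was also higher in HCD PANDORA-seq libraries. For each 28S read there were 0.0414, 0.0377, 0.0749 and 0.0360 reads of 45S in HCD PANDORA-seq libraries, against 0.00949 to 0.0287 (mean 0.0179 ± 0.00717, SD, n = 5) in LCD PANDORA-seq libraries. The groups did not overlap, and the log2 difference was 1.44 (exact permutation p = 0.0159, adjusted p = 0.0342). 45S/5.8S differed by 0.92 (adjusted exact p = 0.0247), while 45S/18S, with 1.84, did not pass (0.0593). Thus 2 of the 6 ratios passed, where 50.0% of the 28 did, a smaller share among the 6 than among all 28. Reads of 45S per 100 reads of the mature RNAs were 2.94 to 6.07 in HCD and 0.704 to 2.30 in LCD PANDORA-seq libraries, and 1.80 to 4.39 in HCD and 1.95 to 2.91 in LCD traditional-seq libraries. The calls of 45S/28S and 45S/5.8S were both lost without HCD mouse 17 (1.19 and 0.69, adjusted exact p = 0.0769 each) and without LCD mouse 1, 2, 3 or 5 (each 0.0571). The sources used here do not state how reads that match both the precursor and a mature RNA were assigned, and the part of such reads in the 45S ratios was not tested.

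**Figure D5:**
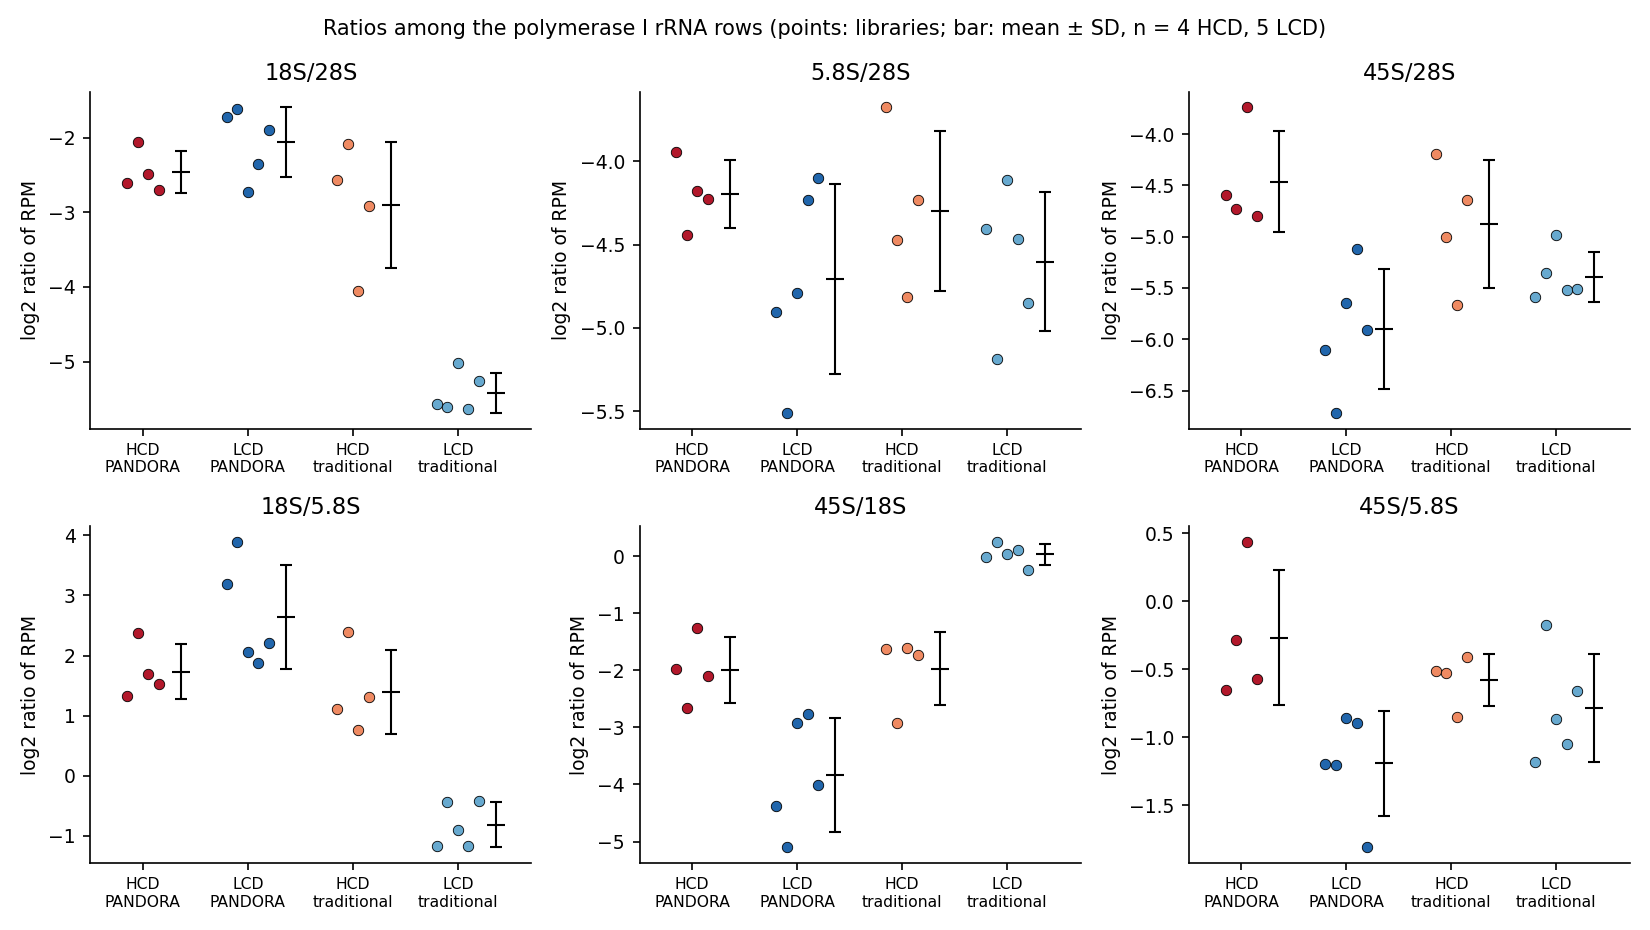
Each panel gives a log2 ratio of RPM between 2 of the entries in the 4 groups, with points for libraries and bars for the mean ± SD. The 18S/28S ratio averages -5.42 in LCD traditional-seq libraries and -2.91 to -2.06 in the other groups, and the 45S/28S ratio of HCD PANDORA-seq libraries (mean -4.46) lies above that of LCD PANDORA-seq libraries (-5.90).

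The diet difference of 18S was itself different between the methods. The diet effect in PANDORA-seq minus that in traditional-seq was -3.07 on the log2 scale for 18S (SE 0.54, limma adjusted p = 0.00175, over 365 RNAs). It was the 1 entry of 4 to pass, downward, where 2.74% of all RNAs tested did, and it passed under all alternatives run (highest adjusted p 0.0360). Of all calls in this difference 50.0% were upward with TMM, 81.1% with RPM as deposited and 0% scaled to miRNA reads. The other 3 did not: 5.8S had 0.05 (SE 0.55, adjusted p = 0.978), 28S -0.16 (SE 0.51, 0.929) and 45S 0.76 (SE 0.60, 0.486). For 45S the diet call in PANDORA-seq is thus not shown to differ from that in traditional-seq.

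Taken within mice, the log2 difference of 18S/28S between PANDORA-seq and traditional-seq averaged 0.44 ± 0.76 in the 4 HCD mice and 3.36 ± 0.67 in the 5 LCD mice (SD). The lowest LCD mouse (2.29) was above the highest HCD mouse (1.57), and the difference was -2.92 (exact permutation p = 0.00794, adjusted p = 0.0202). 18S/5.8S differed by -3.12 and 45S/18S by 3.84, at the same adjusted exact p, so 3 of the 6 ratios passed, where 53.6% of the 28 did. The share among the 6 was thus no larger than that among all 28. Each of the 3 lost its call without HCD mouse 17 or any 1 of the 5 LCD mice (adjusted exact p up to 0.0571). For 45S/28S the difference was 0.92 (adjusted exact p = 0.210).

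The other 4 rRNA entries are 5S, made by RNA polymerase III, 16S and 12S, made in mitochondria, and 4.5S. In LCD mice 4 of 4 were higher by PANDORA-seq, with log2 fold changes of 0.91 to 2.30, below the 4.52 of 18S. In HCD mice 2 of 4 passed, 5S (2.44, limma adjusted p = 9.47e-06) and 16S (1.01, 0.0440). By diet 12S fell in PANDORA-seq (-2.38, limma adjusted p = 0.0148), where 15.6% of all RNAs tested passed downward. As deposited, 12S is a low entry, with 8.91 to 90.0 RPM in HCD and 84.1 to 534 RPM in LCD PANDORA-seq libraries. These ranges overlapped. In traditional-seq 0 of 4 passed by diet, and 5S had the lowest limma adjusted p (0.0548, unadjusted 0.00613). No entry of the 4 passed the difference between the methods in the diet effect, where 12S had -2.36 (adjusted p = 0.0864, unadjusted 0.00684).

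Among RNAs with at least 10 RPM in all 18 libraries (86 RNAs other than rRNAs), those whose log2 level followed each entry most closely were found after group means were subtracted. For 18S they were mt-tRNA-Val-TAC, the pooled piRNA entry (Pearson r = 0.680) and tRNA-Val-AAC (0.585), in falling order. 28S was followed by mt-tRNA-His-GTG (0.721), mt-tRNA-Gly-TCC (0.645) and tRNA-Trp-CCA (0.541). 5.8S was followed by tRNA-Thr-TGT (0.699), tRNA-Val-CAC (0.697) and miR-125a (0.609), and 45S by miR-423 (0.648), tRNA-Glu-CTC (0.640) and miR-151 (0.632). Among the entries themselves the closest were 45S with 5.8S (0.527) and 18S with 28S (0.477), and 28S had 0.112 with 45S. Of the other rRNA entries, 16S (0.701) and 4.5S (0.648) followed 18S more closely than any pair among the 4 entries did. These correlations over 18 libraries share the library totals and are given as descriptions.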

How the data were processed

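Liver RNA of 9 mice was sequenced by both methods. The authors assigned reads with SPORTS1.1 to mm10 and deposited RPM values (reads scaled to the read total of a library) for 1234 RNAs. Empty cells (11673) were read as 0, and none belonged to the 4 entries. Groups came from the labels. Libraries of a mouse pair because, by the methods, both used RNA of 1 liver; their deviations from group means correlated with r of 0.0858 to 0.397, and the library of the same mouse was the best match in 5 of 9 mice. No 2 libraries held identical values. RPM are not counts, and only 67.6% to 81.5% of values below 3 RPM were within 0.02 of a whole read, so no count test was run. limma 3.58.1 (R 4.3.3, with a trend) was applied to log2(RPM + 1), over RNAs at 1 RPM or more in at least 4 libraries (5 for the methods in LCD mice), with an adjusted p of 0.05, on RPM as deposited between methods and after TMM scaling (own code, trimming 30% by fold and 5% by level) by diet. Fold changes on this scale understate those of rare RNAs. Ratios were compared by exact tests in Python 3.11.15 (numpy 2.4.6, pandas 2.3.3). Plots used matplotlib 3.10.9. Alternatives were other scalings, pseudocounts, filters, a replicate block, 1 fit of all libraries, plain ratios and leaving out each library. The RNAs named were the 4 entries, the other rRNAs and the 3 RNAs that followed each entry most closely. Of the marker list, miR-142 was not found. miR-223 (blood cells), miR-143 with miR-145a (stellate and smooth muscle) and miR-200a, miR-200b and miR-429 (biliary) took at most 0.00785%, 2.31% and 0.0578% of miRNA reads in a library. Their means were lower in HCD than in LCD libraries by both methods, with overlapping ranges. For stellate and smooth muscle markers the HCD and LCD means were 0.594% and 1.10% by PANDORA-seq, and 0.845% and 1.41% by traditional-seq. For biliary markers they were 0.00829% and 0.0229% by PANDORA-seq, and 0.0226% and 0.0322% by traditional-seq. The entries and lists were chosen with earlier results of these data known. Mice are separate animals, and no batch is named in the labels.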

Additional observations from a re-analysis of the deposited data

Results flagged for a closer look

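The diet effect of 18S differed between the methods, by -3.07 on the log2 scale for its level (limma adjusted p = 0.00175). For ratios within mice, the same difference was -2.92 for 18S/28S, -3.12 for 18S/5.8S and 3.84 for 45S/18S (adjusted exact permutation p = 0.0202 each), and all 3 share the 18S values. Among all 28 rRNA ratios 53.6% passed, so the share among the 6 of the polymerase I entries was no larger. Each of the 3 lost its call in 6 of 9 cases with 1 mouse left out (adjusted exact p up to 0.0571). In HCD traditional-seq libraries the log2 45S/18S ratio of mouse 16 was -2.92, while the other 3 libraries lay between -1.72 and -1.61, a gap of 0.912 of the group's range. Of 40 such groups of values examined, 1 passed Dixon's 95% limit, and chance gives about 1 in 20.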

How the results depend on the processing

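The higher level of all 4 entries in PANDORA-seq kept its direction under all alternatives run, as did the diet effect of 18S in traditional-seq and its difference between the methods. Where no reason is given, the cause of a change was not tested. The number of RNAs called depended on the setting. Between methods it was 71 higher and 229 lower in LCD mice and 57 and 192 in HCD mice, and scaled to miRNA reads 135 and 57 in LCD and 120 and 80 in HCD mice. A filter at 10 RPM, which tests fewer RNAs, left 115 lower in HCD mice. By diet in PANDORA-seq, 19 were higher and 38 lower. The number higher was 29 with RPM as deposited, 12 with a pseudocount of 10, 39 with all 18 libraries in 1 fit, and 0 with no filter or scaled to miRNA reads, and the number lower was 113 scaled to miRNA reads, 13 with no filter and 23 in the 1 fit. By diet in traditional-seq, 12 were higher and 22 lower. The number higher was 3 with RPM as deposited or scaled to miRNA or listed reads, 4 with no filter and 7 in the 1 fit, and the number lower was 57 with RPM as deposited, 49 scaled to miRNA reads, 53 scaled to listed reads and 6 with no filter. For the difference between the methods in the diet effect, 10 were higher and 10 lower. The number higher was 43 with RPM as deposited, 0 scaled to miRNA reads, 36 scaled to listed reads, 6 with a pseudocount of 0.1 and 2 with no filter, and the number lower was 6 with a filter at 10 RPM. Leaving out 1 library gave 62 to 73 higher and 158 to 231 lower for the methods in LCD mice, 49 to 63 and 132 to 194 in HCD mice, 2 to 25 and 21 to 36 by diet in PANDORA-seq, 5 to 16 and 13 to 40 by diet in traditional-seq, and 0 to 25 and 3 to 11 for the difference between the methods.

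The mouse as a replicate block gave 40 RNAs higher and 15 lower for the difference between the methods in the diet effect, and changed no call among the levels of the 4 entries. For 18S/28S between methods in LCD mice it kept 3.36 but not the call, since 5 pairs cannot pass (adjusted exact p = 0.125).

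As log2 values, 45S between methods in LCD mice lost its call at 0.65 with no filter and in the fit of all 18 libraries. By diet in PANDORA-seq scaled to miRNA reads, 18S was -1.99 and 28S -1.58, both passing, while 5.8S was -1.07 and 45S -0.15, both turned round. 28S, not called, was 0.12 with RPM as deposited, 0.028 scaled to listed reads and 0.28 in the 1 fit, and 45S lost its call at 1.39 with no filter. In traditional-seq 28S was -0.0070 scaled to miRNA reads, and 45S passed at 1.19 with a filter at 10 RPM. The difference between the methods turned round, uncalled, for 5.8S (-1.37) and 45S (-0.66) scaled to miRNA reads and for 28S (0.087) with RPM as deposited. Over 9 mice the plain ratios gave 0.0014 for 45S/28S and 0.0044 for 45S/5.8S, both uncalled.

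Leaving out 1 library, levels ran over 0.52 to 0.79 for 45S between methods in LCD mice, -0.19 to 0.070 for 28S and 1.004 to 1.62 for 45S by diet in PANDORA-seq, 0.44 to 0.99 for 28S and 0.96 to 1.28 for 45S by diet in traditional-seq, and -0.35 to 0.18 for 5.8S and -0.68 to 0.051 for 28S in the difference between the methods. Ratios ran over -0.26 to 0.10 (5.8S/28S) and -0.70 to -0.31 (45S/28S) between methods in LCD mice, -0.071 to 0.31 (5.8S/28S) and -0.34 to 0.19 (45S/18S) in HCD mice, 1.19 to 1.63 (45S/28S) by diet in PANDORA-seq, 2.24 to 2.90 (18S/28S) by diet in traditional-seq, and -3.29 to -2.75 (18S/28S) in the difference between the methods. Over 9 mice they ran over 1.82 to 2.32 (18S/28S), -0.11 to 0.071 (5.8S/28S), -0.35 to 0.057 (45S/28S) and -0.26 to 0.045 (45S/5.8S). An exact test has a higher smallest p with fewer libraries.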
